A study of Mus musculus with 80 samples.

Results

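The glucocorticoid-responsive genes described here are 8 of the 78275 genes in the raw count table of a mouse liver time course. They were found by their symbols, and all 8 were among the 21187 genes that passed the filter on low counts. They are Nr3c1 (ENSMUSG00000024431.16), Hsd11b1 (ENSMUSG00000016194.15), Fkbp5 (ENSMUSG00000024222.19), Tsc22d3 (ENSMUSG00000031431.14), Sgk1 (ENSMUSG00000019970.16), Zbtb16 (ENSMUSG00000066687.6), Mt1 (ENSMUSG00000031765.9) and Mt2 (ENSMUSG00000031762.8). The livers came from C57BL/6J mice, an inbred strain, aged 8 to 12 weeks, which had been kept on a light and dark cycle and were then held in constant darkness. The control mice ate ad libitum throughout, and the fasted mice lost their food at circadian time (CT) 10. From CT8 to CT44, at 10 times 4 h apart, 2 males and 2 females of each treatment were sampled, so that each treatment and time had 4 mice and each treatment 40 libraries. At CT8 the mice of the fasted group still had food. From CT12 to CT44 they had been without it for 2 to 34 h, and these 9 times give 36 fasted and 36 control mice. The labels name no transgene, hormone or drug and give no hormone level, so that the mRNA of these genes was measured and glucocorticoid action was not.

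Glucocorticoids (corticosterone in the mouse) are released from the adrenal gland with a daily rhythm and rise when food is lacking. In the hepatocyte they bind a receptor held by chaperones in the cytosol, which moves to the nucleus and binds DNA at glucocorticoid response elements. The hormone is known in liver for raising enzymes of glucose production and of amino acid breakdown. Nr3c1 encodes that receptor, and Hsd11b1 the enzyme that turns inactive 11-keto steroids into active hormone inside the cell. Fkbp5 encodes a co-chaperone that lowers the affinity of the receptor for its hormone. Tsc22d3 encodes GILZ, a leucine zipper protein with anti-inflammatory actions, Sgk1 a kinase and Zbtb16 (PLZF) a zinc finger transcription factor, and these genes are widely used as readouts of the receptor. Mt1 and Mt2 encode metallothioneins, small cysteine-rich proteins that bind zinc and copper. Metals raise both through metal response elements and the factor MTF-1, and glucocorticoids raise them as well.

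The libraries held 25534901 to 59927771 counts on genes (median 42303883). Levels are given below in CPM, counts scaled to library size by TMM, without correction for gene length, so that they compare mice and not genes. Effects are log2 differences between fasted and control mice with their standard error (SE). Each p is from edgeR's quasi-likelihood test, adjusted over all genes tested (Benjamini–Hochberg), unless another test is named, and a difference is called at an adjusted p under 0.05. Groups follow the titles of the libraries, from which other labels differ in sex for 40 libraries and in treatment for 40, and Xist and Ddx3y matched the sex in the title in 80 of 80 libraries. In bulk liver, fewer cells of a type and less RNA per cell cannot be told apart.

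The 250 bases before the transcription start were read from RefSeq (GRCm38.p6, an older build than the GRCm39 of the submitters' processing notes) for the 6 of 8 members with a window there. They were searched on both strands for the glucocorticoid response element (the site GNACA, 3 bases of any kind, then its reverse complement), the metal response element core (TGCGCNC or TGCACNC) and the E-box CACGTG, which clock factors bind. The windows of both metallothioneins are shown because these genes had the largest effects, and that of Fkbp5 because its fitted rhythm differed between treatments. Capitals mark every match. All 3 sequences are written 5′ to 3′ along the transcribed strand and end at the base before the start.
Mt1, chr8:94178839-94179088, plus strand: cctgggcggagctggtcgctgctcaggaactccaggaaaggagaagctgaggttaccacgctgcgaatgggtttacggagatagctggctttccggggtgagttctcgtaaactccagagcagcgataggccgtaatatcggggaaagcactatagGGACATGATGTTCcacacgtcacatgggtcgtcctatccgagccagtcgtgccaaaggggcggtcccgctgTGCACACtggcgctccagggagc
Mt2, chr8:94172368-94172617, plus strand: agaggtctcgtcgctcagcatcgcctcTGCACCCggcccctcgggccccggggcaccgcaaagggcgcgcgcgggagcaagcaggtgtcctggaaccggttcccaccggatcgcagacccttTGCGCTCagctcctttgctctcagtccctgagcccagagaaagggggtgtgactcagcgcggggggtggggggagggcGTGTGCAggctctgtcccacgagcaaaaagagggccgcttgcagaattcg
Fkbp5, chr17:28486150-28486399, minus strand: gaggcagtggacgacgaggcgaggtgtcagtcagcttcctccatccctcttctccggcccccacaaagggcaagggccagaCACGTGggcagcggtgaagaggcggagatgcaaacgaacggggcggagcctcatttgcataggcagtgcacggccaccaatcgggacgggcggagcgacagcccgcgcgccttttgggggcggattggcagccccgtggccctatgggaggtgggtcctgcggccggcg
The Mt1 window held a glucocorticoid response element, GGACATGATGTTC, 94 to 82 bases before the start and a metal response element core, TGCACAC, at 23 to 17 bases. The Mt2 window held 3 metal response element cores, with first bases 223, 128 and 50 before the start, and no glucocorticoid response element in these letters. The Fkbp5 window had an E-box at 169 to 164 bases and neither other motif. Of the 6 windows of Sgk1, 1 held a glucocorticoid response element and an E-box, the Hsd11b1 window held a metal response element core, and the 3 windows of Tsc22d3 held none of the motifs. Of 32851 windows of this length, 0.387% held the glucocorticoid response element, 21.4% the metal response element core and 6.02% the E-box. A match describes letters and is not a bound site. Mt1 and Mt2 had 1 window each, before 1 annotated start, so that the matches do not count the elements of either whole promoter. An element outside these windows, in an enhancer or beside another start, would not be seen.

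Over the mean of CT12 to CT44, fasting raised 5 of the 8 genes and lowered 2. Across all genes tested, 29.5% were called higher and 32.9% lower, and the median effect was -0.02 on the log2 scale, against 1.27 for the 8 members. Mt2 rose by 4.61, Mt1 by 3.64, Fkbp5 by 2.16, Zbtb16 by 1.92 and Sgk1 by 0.63 on the log2 scale. Nr3c1 fell by 0.46 and Hsd11b1 by 0.27, while the value for Tsc22d3 was 0.10 ± 0.081 (SE, adjusted p = 0.31).

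**Figure D1:**
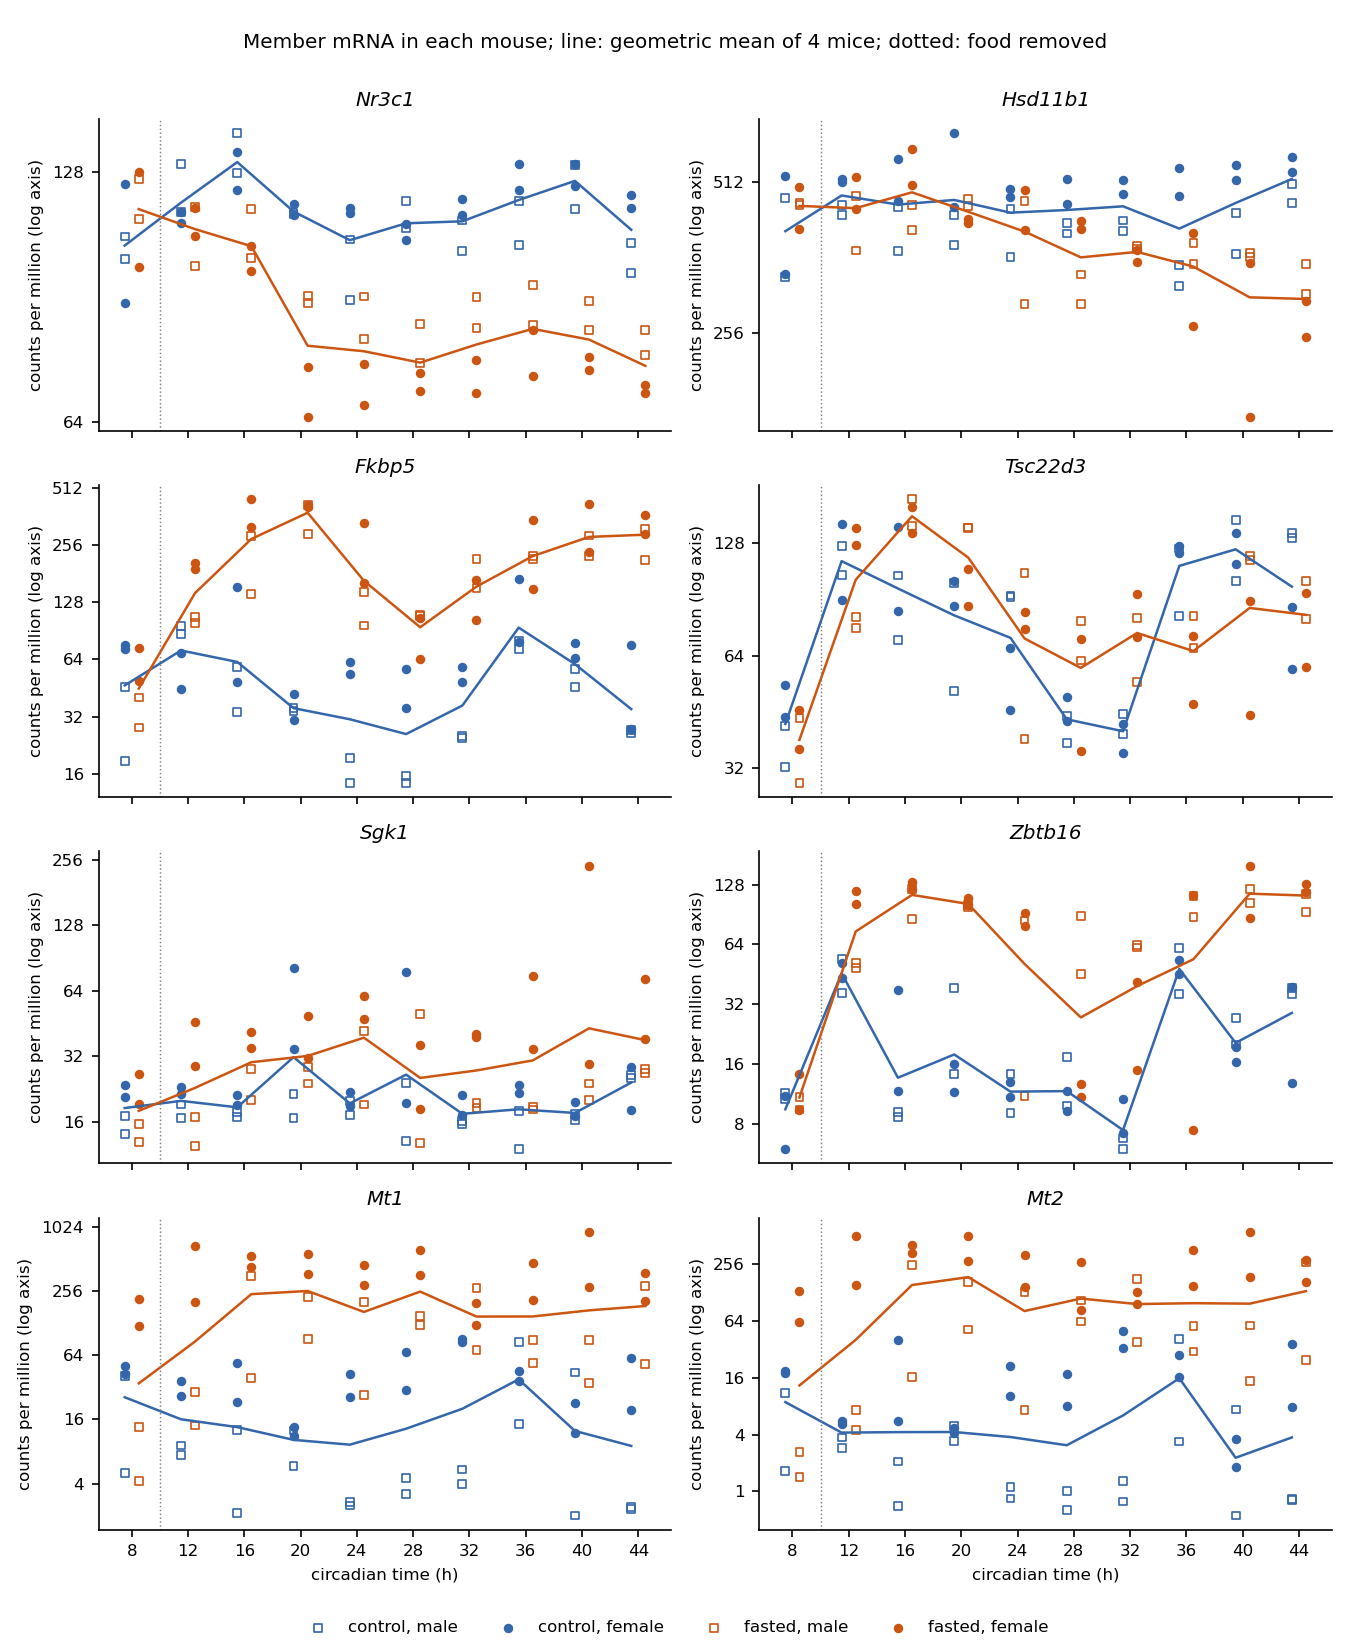
CPM (log axis) of each member in each mouse against circadian time in hours, control mice in blue and fasted mice in orange, males as open squares and females as filled circles, with lines through the geometric mean of 4 mice and a dotted line where food was removed. The fasted lines of Fkbp5, Zbtb16, Mt1 and Mt2 run above the control lines from CT12 on, that of Nr3c1 runs below, and those of Tsc22d3 cross.

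Nr3c1, the receptor, had 116 ± 10.7 CPM in control livers and 85.1 ± 14.2 in fasted livers (SD, 36 mice each), an effect of -0.46 ± 0.028 (SE, adjusted p = 3.4e-19). Control mice lay between 89.7 and 142 CPM with a median of 115, and fasted mice between 65.0 and 116 with a median of 82.6. At CT12 the fasted mice had 116, 98.6, 116 and 107 CPM and the controls 114, 131, 111 and 115 (here and below 2 males, then 2 females). These groups overlapped, and the difference at CT12 was not called. By CT20 the controls had 114, 114, 114 and 117 CPM and the fasted mice 90.7, 89, 65 and 74.6, with no overlap and the 2 females lowest. The effect was called lower at 8 of 9 times, all but CT12, and its largest estimate was at CT40, -0.63 ± 0.084 (adjusted p = 3.9e-08). At CT40 the controls had 130, 115, 123 and 131 CPM and the fasted mice 89.5, 82.6, 76.6 and 73.9. From CT20 to CT44 the highest fasted mouse had 93.5 CPM, at CT36, and the lowest control mouse 89.7 CPM, at CT24.

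Hsd11b1, the enzyme that makes active hormone in the cell, had 468 ± 69.99 CPM in control livers and 392 ± 84.8 in fasted livers (SD, 36 mice each), an effect of -0.27 ± 0.051 (SE, adjusted p = 1.0e-05). The difference was called at 2 of 9 times, both late. At CT40 the controls had 368, 445, 518 and 554 CPM and the fasted mice 364, 371, 354 and 175, an effect of -0.58 ± 0.15 (adjusted p = 0.0018). A fasted female was far below the others, and a fasted male, at 371 CPM, was just above the lowest control, a male at 368 CPM. Without that female, an alternative chosen after seeing the data, the effect at CT40 was -0.36 and not called (adjusted p = 0.072). It was not called either without female replicate 2 (-0.34), without male replicate 2 (-0.52) or in males alone (-0.15). At CT44, after 34 h without food, the controls had 507, 466, 537 and 575 CPM and the fasted mice 352, 306, 252 and 297, with no overlap and an effect of -0.79 ± 0.15 (adjusted p = 4.7e-05). At CT16 the estimate was 0.08 ± 0.15 and not called. The fasting effect of both genes changed over the 9 times (adjusted p = 0.013 for Nr3c1 and 0.023 for Hsd11b1), as it did for 33.7% of all genes. Taken relative to the difference at CT8, an alternative chosen after seeing the data, the effect of Nr3c1 was -0.60 (adjusted p = 1.6e-06) and that of Hsd11b1 -0.41 (adjusted p = 0.060), which was no longer called.

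Fkbp5, the co-chaperone that feeds back on the receptor, had 54.7 ± 34.5 CPM in control livers and 233 ± 111 in fasted livers (SD, 36 mice each), an effect of 2.16 ± 0.11 (SE, adjusted p = 5.1e-22). At CT12, 2 h after food was removed, the fasted mice had 107, 99.2, 207 and 191 CPM and the controls 87.4, 96, 44.5 and 69.3. No fasted mouse was below a control then, but the effect of 0.99 ± 0.31 was not called (adjusted p = 0.096). At CT20 the controls had 34.1, 35.5, 30.9 and 42 CPM and the fasted mice 294, 417, 418 and 405, the widest gap of the course, at 3.42 ± 0.34 (adjusted p = 5.4e-11). The effect was called at 8 of 9 times. It was smallest among these at CT36, at 1.26 ± 0.32 (adjusted p = 0.0021), where the controls were near their own daily high with 72.6, 80.2, 79.2 and 170 CPM and the fasted mice had 215, 225, 347 and 150. There a control female, at 170 CPM, exceeded a fasted female, at 150 CPM. The change over time was called (adjusted p = 0.00048).

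Zbtb16, the zinc finger factor, had 24 ± 16.5 CPM in control livers and 84.6 ± 39.4 in fasted livers (SD, 36 mice each), an effect of 1.92 ± 0.15 (SE, adjusted p = 4.6e-15). The difference was called at 7 of 9 times, all but CT12 and CT36. At CT16 the controls had 9.15, 8.62, 37.6 and 11.7 CPM and the fasted mice 122, 85.5, 121 and 132, an effect of 2.95 ± 0.48 (adjusted p = 6.9e-06) with no overlap. Some fasted mice were not above the controls of their time. These controls had 9.06 to 14.2 CPM at CT24, 9.24 to 17.3 at CT28 and 36.1 to 61.2 at CT36. At CT36 a fasted female, at 7.44 CPM, lay below all 4 controls. At CT24 the fasted mice had 84.5, 11, 91.7 and 79.2 CPM, at CT28 45.6, 89.2, 12.7 and 11 and at CT36 88.2, 112, 114 and 7.44, so that 1 male at CT24, both females at CT28 and 1 female at CT36 had 7.44 to 12.7 CPM beside group mates several times higher. In these 4 mice Fkbp5 had 96.5, 105, 64.1 and 150 CPM, above the median of the control mice of all 9 times, at 48.7 CPM. The highest control had 62.0 CPM at CT24 and 56.6 CPM at CT28. At CT36 the controls had 72.6 to 170 CPM, so that the female at 150 CPM lay within their range. At CT28 the effect of 1.24 ± 0.46 had an adjusted p of 0.046 and was called in 11 of 18 alternatives. The change of the effect over time was called (adjusted p = 0.012).

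Tsc22d3 (GILZ) showed no difference over the mean of the 9 times that passed the test. Its mean level was 89.0 ± 35.9 CPM in control livers and 92.6 ± 34.5 in fasted livers (SD, 36 mice each), but its fasting effect changed with time (adjusted p = 0.0013). At CT32 it was higher in fasted mice, by 0.89 ± 0.25 on the log2 scale (adjusted p = 0.0082): the controls, at their daily low, had 44.7, 39.5, 42.1 and 35.2 CPM and the fasted mice 54.5, 80.7, 71.6 and 93.5, without overlap. At CT36, 4 h later, it was lower, at -0.75 ± 0.24 (adjusted p = 0.018), with 124, 81.7, 126 and 120 CPM in controls and 67.1, 81.8, 72.4 and 47.5 in fasted mice, where the highest fasted male and the lowest control male had about the same value. Between these times the control mice went from 35.2 to 44.7 CPM up to 81.7 to 126 CPM, while the fasted mice covered 54.5 to 93.5 CPM and then 47.5 to 81.8 CPM. The calls at CT32 and CT36 were each kept in 14 of 18 alternatives. At CT32 the effect was 0.69 without male replicate 2 (adjusted p = 0.19) and 0.73 without female replicate 2 (adjusted p = 0.099), and at CT36 it was -0.53 without male replicate 1 (adjusted p = 0.25), -0.63 without female replicate 2 (adjusted p = 0.12) and -0.59 without the 3 libraries of high Saa1 (adjusted p = 0.082). At CT16 and CT20 the estimates were 0.61 ± 0.24 and 0.48 ± 0.24, and neither was called.

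Sgk1, the kinase, had 23.3 ± 14.6 CPM in control livers and 38.7 ± 38.0 in fasted livers (SD, 36 mice each), an effect of 0.63 ± 0.13 (SE, adjusted p = 3.0e-05). In the fit of all libraries the mean effect was 0.90 ± 0.18 in females (adjusted p = 2.5e-05) and 0.35 ± 0.18 in males, where it was not called (adjusted p = 0.11). A separate fit of males alone kept the call. By time, Sgk1 was called higher at CT24 and CT40 only, and its change over time was not called (adjusted p = 0.15). At CT24 the fasted mice had 41.9, 19.2, 60.4 and 47.6 CPM and the controls 17.2, 19.9, 18.9 and 22, an effect of 1.06 ± 0.38 (adjusted p = 0.036) in which 1 fasted male lay among the controls. This call was kept in 10 of 18 alternatives, and the effect was 0.66 without male replicate 1 (adjusted p = 0.53) and 0.72 without the 3 libraries of high Saa1 described with the metallothioneins (adjusted p = 0.27). The effect at CT40, 1.63 ± 0.39 (adjusted p = 0.00063), rests on a single fasted female: the fasted mice had 20.2, 24, 29.4 and 241 CPM and the controls 16.2, 17.4, 19.8 and 17.1. Over the alternatives, the lowest value at CT40 was 0.40, in males alone. Without this female, an alternative chosen after seeing the data, the effect at CT40 was 0.55 and the mean effect over the 9 times was 0.51 (adjusted p = 6.0e-05). Taken relative to CT8 the mean effect was 0.66 and no longer called (adjusted p = 0.26). In controls, 2 females, 1 at CT20 with 81.6 CPM and 1 at CT28 with 78.2 CPM, stood above all other control mice, of which the next had 34.6 CPM.

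Mt1 and Mt2, the metallothioneins, had the largest effects. Mt1 went from 25.8 ± 26 to 263 ± 214 CPM (SD, 36 mice each), an effect of 3.64 ± 0.25 (SE, adjusted p = 6.3e-17), and Mt2 from 10.5 ± 13.8 to 180 ± 156 CPM, an effect of 4.61 ± 0.30 (adjusted p = 7.1e-18). Mt2 was the only member called at CT12, at 3.40 ± 0.87 (adjusted p = 0.028), where the fasted mice had 4.53, 7.38, 156 and 518 CPM and the controls 3.74, 2.88, 5.20 and 5.58. The fasted females stood far above the other mice and the fasted males close to the control males, and the call was kept in 11 of 18 alternatives. At CT8, still with food, the females due to be fasted were also estimated higher in Mt2, by 2.42 ± 1.1, which was not called. At CT20 the controls had 12.6, 5.83, 13.7 and 11.1 CPM of Mt1 and the fasted mice 91.4, 226, 371 and 564, and for Mt2 the values were 4.91, 3.44, 4.72 and 4.18 against 52.2, 167, 276 and 517, both without overlap. Mt2 was called higher at 9 of 9 times and Mt1 at 7, all but CT12 and CT36 (adjusted p = 0.054 and 0.055). The call of Mt2 at CT36 was kept in 13 of 18 alternatives, with 0.96 in males alone (adjusted p = 0.64) and 1.55 without male replicate 2 (adjusted p = 0.15), and that of Mt1 at CT32 in 14, with 0.87 in females alone (adjusted p = 0.44). At CT36 the controls had 85.5, 14.4, 36.9 and 45.8 CPM of Mt1 and the fasted mice 54.1, 89.4, 212 and 465.

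The control male at 85.5 CPM of Mt1 at CT36 was 1 of 3 libraries with high Saa1, an acute phase gene: this male had 5423 CPM of Saa1, a control male at CT40 had 5824 and a fasted male at CT24 had 3620. Their Mt1 levels were 85.5, 44 and 200 CPM. The other 16 control males from CT12 to CT44 had between 2.01 and 14.4 CPM of Mt1, and the other 17 fasted males between 14 and 353. Without these 3 libraries, an alternative chosen after seeing the data, the mean effect was 3.81 for Mt1 (adjusted p = 5.0e-17) and 4.73 for Mt2 (adjusted p = 2.6e-17). The change of the effect over time was not called for either gene (adjusted p = 0.13 and 0.15).

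**Figure D2:**
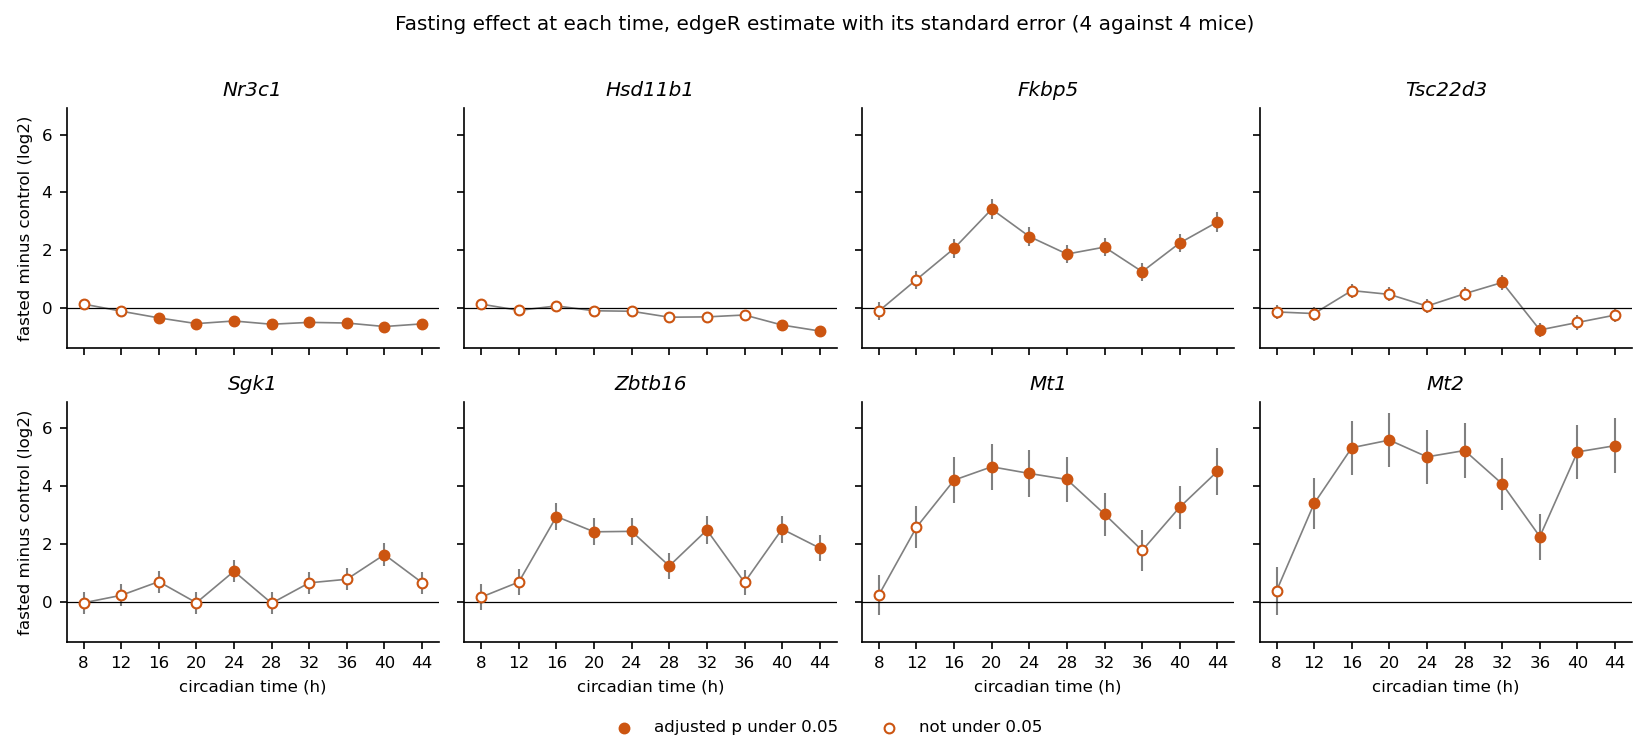
Fasted minus control difference (log2) of each member against circadian time in hours, from edgeR with bars of 1 SE, 4 against 4 mice a point, filled where the adjusted p was under 0.05. All points at CT8 are open, and those of Mt2 are filled at all 9 later times.

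Counted by time, 1 of 8 members was called at CT12, when 1.6% of all genes were. The count was 5 at CT16 (23.4% of all genes), 5 at CT20 (36.6%), 6 at CT24 (24.1%), 5 at CT28 (21%), 6 at CT32 (17.7%), 4 at CT36 (26.8%), 7 at CT40 (39.9%) and 6 at CT44 (39.4%). In all, 45 of 72 tests of a member at a time were called. The change of the effect over time was called in 17 of 18 alternatives for Tsc22d3, 15 for Fkbp5, 13 for Zbtb16 and for Hsd11b1, and 10 for Nr3c1. At CT8, before food was removed, 0 of 8 members were called, 0 had an unadjusted p under 0.05, and DESeq2 and limma-voom called 0 as well, while 1.33% of all genes were called. That share moved with single libraries. Without a control female (replicate 2) with 31.3% of its counts in Rn18s, a ribosomal RNA gene, 11 genes were called in place of 282, and without male replicate 1 or 2 the count was 0 or 1, each time with 0 members. Without replicate 1 of the females, Nr3c1 was called higher at CT8 in the mice due to be fasted, by 0.36 (adjusted p = 0.021), and 2123 genes were called. In that setting the library rich in ribosomal RNA is the single control female at CT8. At CT8 the females due to be fasted had 214 and 121 CPM of Mt1 and the control females 50.9 and 42.4, a difference within females that was not called for Mt1 (adjusted p = 0.32) or Mt2 (adjusted p = 0.23).

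Daily rhythms were fitted in the 40 control livers as a 24 h cosine with sex in the model, and in the 36 fasted livers of CT12 to CT44 with a linear trend besides. In controls 6 of 8 members were called rhythmic, and 41.8% of all genes fitted. The rhythms of 4 members peaked close together: Fkbp5 at CT13.3 ± 0.53 with a peak-to-trough difference of 1.67 ± 0.26, Zbtb16 at CT15.0 ± 0.68 with 1.96 ± 0.39, Nr3c1 at CT15.0 ± 0.82 with 0.25 ± 0.059 and Tsc22d3 at CT16.4 ± 0.44 with 1.60 ± 0.19 (estimate ± SE, log2 scale, adjusted p = 9.1e-06, 0.00069, 0.0028 and 1.7e-07). These times fall in the early subjective night, after the onset of the active phase of the mouse. Mt1 peaked at CT10.7 ± 1.2 (adjusted p = 0.028), and Mt2, at CT11.1 ± 1.4, was not called (adjusted p = 0.081). Sgk1 peaked at CT23.6 ± 1.2 (adjusted p = 0.040), but without the 2 control females of high Sgk1 its rhythm was not called (adjusted p = 0.051) and its peak-to-trough difference went from 0.70 to 0.32. Hsd11b1 was not called (adjusted p = 0.22).

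The swing can be seen in single mice. The means of control Zbtb16 were highest at CT12 (46.3 CPM) and CT36 (49.0 CPM) and were down to 16.8 CPM at CT16 and 20.8 CPM at CT40, so that its highs came before the peak of the fitted cosine. Control Zbtb16 had 36.5, 54.1, 43.1 and 51.3 CPM at CT12 and 9.15, 8.62, 37.6 and 11.7 at CT16, where 1 female was still high. On the second day it had 5.95, 6.73, 7.17 and 10.6 CPM at CT32 and 36.1, 61.2, 53.7 and 45.2 at CT36, so that all 4 mice at CT36 were above all 4 at CT32. Control Tsc22d3 had 32.2, 41.6, 43.8 and 53.4 CPM at CT8 and 126, 105, 90.3 and 144 at CT12. All 4 mice at CT12 were above all 4 at CT8.

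In fasted livers 4 members were called for the 24 h cosine, where 47.1% of all genes were. Their fitted peaks were at CT17.8 ± 0.58 for Fkbp5, CT17.3 ± 0.86 for Zbtb16, CT17.0 ± 0.86 for Tsc22d3 and CT13.3 ± 0.67 for Nr3c1. Circadian time and hours without food rose together in these mice. A 24 h rhythm therefore cannot be told apart from a response that rose and fell after food was removed. This limit holds for the joint test below as well. A joint test of whether the rhythms of both treatments differed called 1 of 8 members, Fkbp5 (adjusted p = 0.00058), and 23.2% of all genes. Its fitted fasted peak stood about 4 h later than its control peak, 17.8 against 13.3 h, with peak-to-trough differences of 1.495 and 1.67. The fasted fit held a linear trend and the control fit did not, while the joint test held a trend for each treatment. For Zbtb16 (adjusted p = 0.17) and Tsc22d3 (adjusted p = 0.19) the difference was not called, and neither was that of Mt1 (adjusted p = 0.064).

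**Figure D3:**
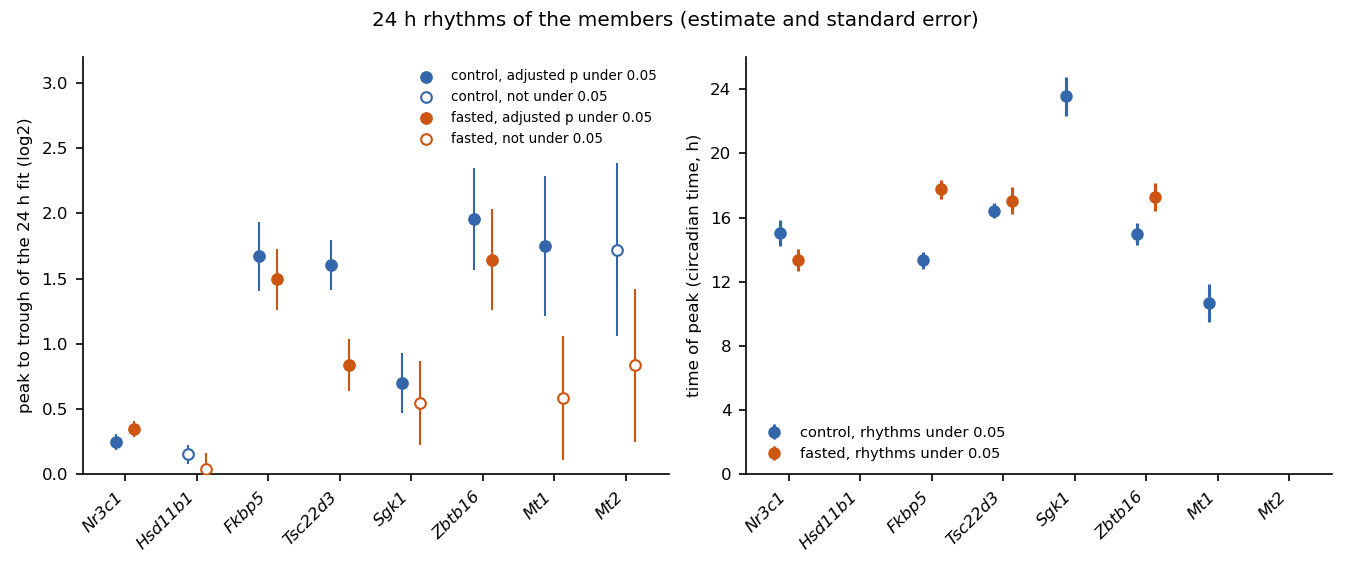
Left, peak-to-trough difference (log2) of the 24 h fit of each member in control (blue) and fasted (orange) livers with bars of 1 SE, filled where the adjusted p was under 0.05. Right, circadian time of the peak in hours with 1 SE for the rhythms called, where the fasted peak of Fkbp5, at CT17.8, stands above its control peak, at CT13.3.

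Females and males differed in control livers. From CT8 to CT44, 5 of 8 members were called higher in females, where 39.2% of all genes differed in either direction. Mt2 was higher in females by 2.39 ± 0.40 on the log2 scale (adjusted p = 3.2e-06), Mt1 by 2.08 ± 0.33 (adjusted p = 1.2e-06), Fkbp5 by 0.84 ± 0.14 (adjusted p = 4.3e-06), Sgk1 by 0.50 ± 0.17 (adjusted p = 0.015) and Hsd11b1 by 0.30 ± 0.068 (adjusted p = 0.00039). Mt1 in the 20 control males had a lowest value of 2.01, a median of 5.24 and a highest of 85.5 CPM, and in the 20 control females 11.1, 36.7 and 90.8 CPM. Hsd11b1 had a lowest value of 319, a median of 427 and a highest of 507 CPM in control males, and 336, 518 and 641 CPM in control females. The sexes overlapped in both genes. The difference of Sgk1 was 0.29 without the 2 control females of high Sgk1 and was then not called (adjusted p = 0.16). With replicate numbers as a block it was 0.31 (adjusted p = 0.29), but that fit takes the difference at replicate 1 of each sex and not over both replicates. Nr3c1, Tsc22d3 and Zbtb16 were not called.

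The fasting effect itself differed by sex for Nr3c1 and Hsd11b1, 2 of 8 members, where 12.4% of all genes did. Nr3c1 fell by 0.34 on the log2 scale in males and by 0.58 in females, a difference of -0.25 ± 0.056 (female minus male, SE, adjusted p = 0.0025). Control males had 114 ± 12.9 CPM and control females 119 ± 7.67, and fasted males had 90.2 ± 11.5 and fasted females 80.04 ± 15.2 (SD, n = 18 each). Hsd11b1 fell by 0.42 in females (adjusted p = 2.1e-06) and was at -0.12 ± 0.072 in males (adjusted p = 0.19), and the difference was -0.31 ± 0.10 (adjusted p = 0.039). Its control females, at 519 ± 46.6 CPM, stood above control males, at 417 ± 48.5, whereas fasted females, at 398 ± 104, and fasted males, at 386 ± 61.7, lay close together (SD, n = 18 each). With a male replicate left out at every time, the difference of Nr3c1 was -0.25 or -0.23 and not called (adjusted p = 0.10 and 0.13). The call for Hsd11b1 was kept in 11 of 15 alternatives. It was lost without the fasted female of high Sgk1 at CT40 (-0.26) and without female replicate 2 (-0.22). Without male replicate 1 (-0.26) or male replicate 2 (-0.33) it was lost as well. Fkbp5 (adjusted p = 0.15), Sgk1 (adjusted p = 0.15), Zbtb16 (adjusted p = 0.81), Tsc22d3 (adjusted p = 0.90), Mt1 (adjusted p = 0.75) and Mt2 (adjusted p = 0.71) were not called. Without the 2 control females of high Sgk1, the difference of Sgk1 was 0.78 and was called (adjusted p = 0.024).

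**Figure D4:**
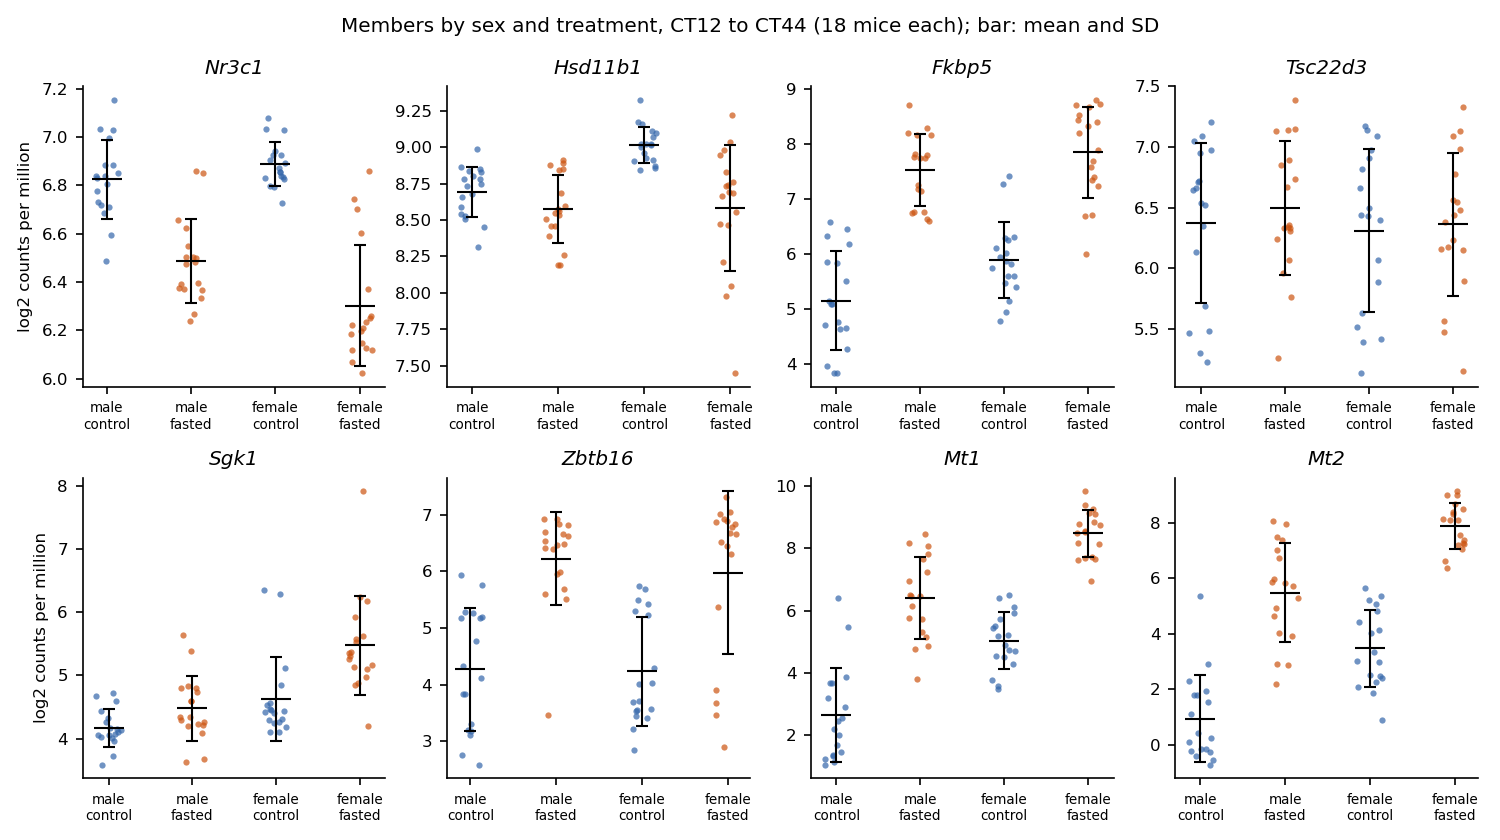
Log2 CPM of each member by sex and treatment over CT12 to CT44, 18 mice a column, controls in blue and fasted mice in orange, with the mean and SD in black. In Hsd11b1 the control females stand above the other 3 groups, and in Mt1 and Mt2 females stand above males under both treatments.

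Mice of one treatment, time and sex also differed from each other, and some members moved together in them. The difference between the 2 mice of each of the 40 such pairs (replicate 2 minus replicate 1, log2 CPM) was correlated between members, which leaves out treatment, time and sex. Of the 28 pairs of members, 9 had an adjusted p under 0.05 (two-sided permutation test of Pearson's r with 100000 resamples, adjusted over the 28 pairs), 10 by Spearman's rho and 8 by both. Other pairs of genes were not examined, so that it is not known whether this share is high for liver genes. Mt1 and Mt2 followed each other most closely (r = 0.95, rho = 0.96, adjusted p = 0.00028 and 9.3e-05, p = 1e-05 for each, the smallest the resamples can give), with the same sign in 36 of 40 pairs. Fkbp5 went with Mt2 (r = 0.60, p = 7.0e-05, adjusted 0.00063; rho = 0.62, p = 5.0e-05, adjusted 0.00035), with Mt1 (r = 0.53, p = 0.00043, adjusted 0.0017; rho = 0.57, p = 0.00013, adjusted 0.00073) and with Zbtb16 (r = 0.53, p = 0.00050, adjusted 0.0017; rho = 0.47, p = 0.0023, adjusted 0.0094).

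Hsd11b1 ran against the metallothioneins: the mouse with more Mt1 had less Hsd11b1 in 32 of 40 pairs (r = -0.59, permutation p = 6.0e-05, adjusted 0.00063; rho = -0.69, p = 1e-05, adjusted 9.3e-05), and for Mt2 the correlation was r = -0.57 (p = 9.0e-05, adjusted 0.00063; rho = -0.68, p = 1e-05, adjusted 9.3e-05). It went with Nr3c1 (r = 0.57, p = 0.00022, adjusted 0.0010; rho = 0.55, p = 0.00028, adjusted 0.0013). Without the 2 pairs of mice farthest from the median of the first gene, these r were -0.64, -0.62 and 0.48, and those of Fkbp5 with Mt2, Mt1 and Zbtb16 were 0.54, 0.52 and 0.43. The relation of Hsd11b1 to Sgk1 (r = -0.60, permutation p = 0.00012, adjusted 0.00067; rho = -0.38, p = 0.015, adjusted 0.042) was -0.45 without those 2, and -0.40 (adjusted p = 0.056) without the pairs holding a library of high Saa1 or the fasted female of high Sgk1. That of Tsc22d3 to Zbtb16 (r = 0.51, permutation p = 0.0012, adjusted 0.0038; rho = 0.30, p = 0.061, adjusted 0.13) fell to 0.30 without the 2 farthest pairs of mice. Within treatments, r for Hsd11b1 and Mt1 was -0.50 over the 20 control pairs and -0.67 over the 20 pairs of the fasted group. Those 20 include the pairs of CT8, which still had food. In controls alone 1 of 28 was called, Mt1 with Mt2.

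**Figure D5:**
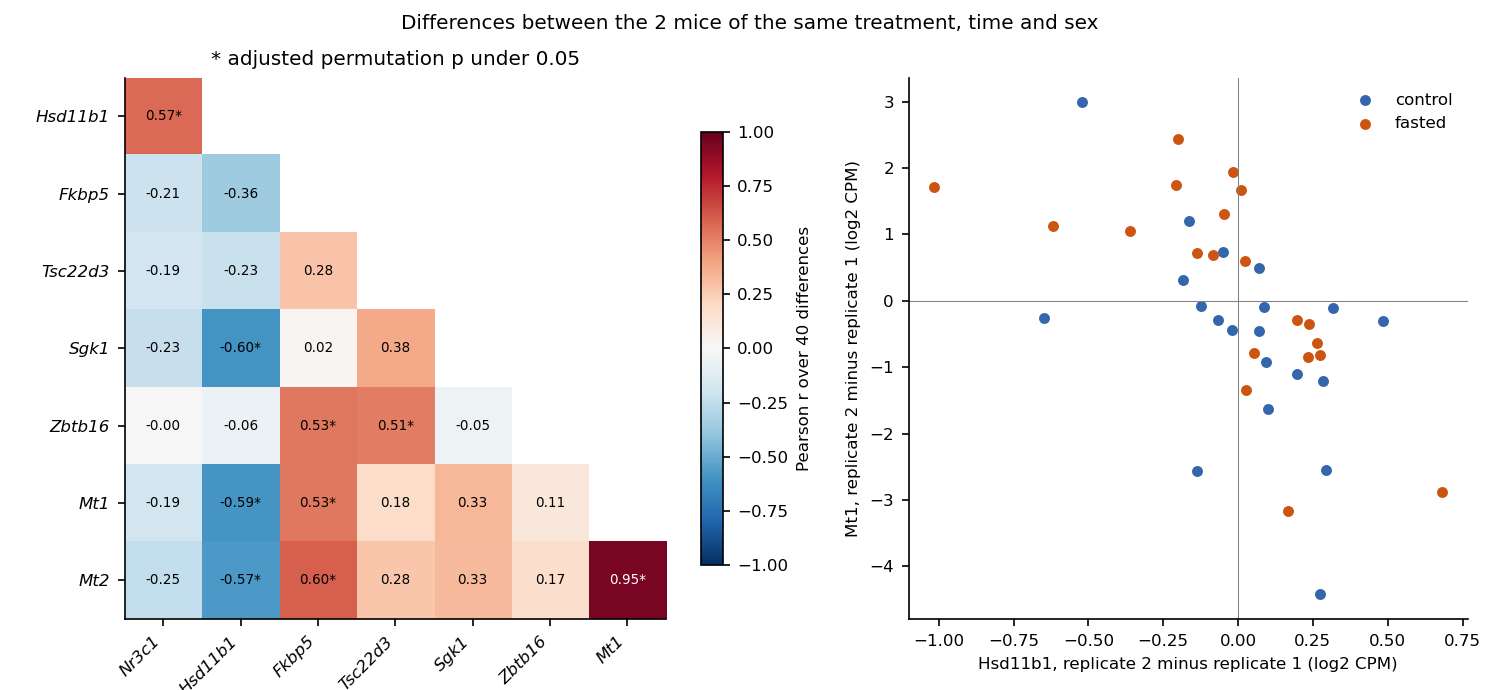
Left, Pearson's r between members over 40 differences between the 2 mice of one treatment, time and sex, with a star where the adjusted permutation p was under 0.05. Right, the differences of Mt1 against those of Hsd11b1 (log2 CPM, replicate 2 minus replicate 1). Controls are in blue and the fasted group, CT8 included, in orange, and most points lie at the upper left and lower right.

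The share of a gene's reads on its single exon bins was compared between treatments in the exon count table, where 14.7% of 13728 genes were called. Among members, 4 were called: Mt1 (adjusted p = 1.5e-18, edgeR's diffSpliceDGE with Simes' method), Hsd11b1 (adjusted p = 1.7e-14), Nr3c1 (adjusted p = 8.8e-05) and Fkbp5 (adjusted p = 0.00053). In Mt1 the change lay mostly in 2 bins. The first, numbered from an end of the gene that the table does not name, held 3.36 ± 2.06% of the gene's bin counts in controls and 0.68 ± 0.80% in fasted mice, and the second bin 5.95 ± 3.02% and 1.34 ± 1.47% (SD). Of the other 6 bins of Mt1, 2 had an unadjusted p under 0.05, and no bin of Mt2 had a p under 0.05. These are shares: both bins took a smaller part of a gene that had risen as a whole. In Hsd11b1 the bin with the smallest p held 0.089% of the counts in controls and 0.048% in fasted mice, and the Fkbp5 bin held 0.054% and 0.16%. With at least 10 counts required in every library for a bin, neither Hsd11b1 nor Fkbp5 was called (adjusted p = 1.0 for both). Nr3c1 bin 19 went from 0.27 to 0.17% and bin 20 from 1.91 to 2.35%. Of the exon columns, 3 of fasted CT40 were matched best by another library of their group, so that this group was fitted without sex.

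The wider pathway was described with lists of genes. They were chosen with earlier results of these data known, so that their counts are descriptions and not tests. Of 16 other genes known as targets of the receptor in liver or elsewhere, 14 were called higher, 1 lower and 1 not, with a median effect of 1.61 against -0.02 over all genes. The largest rises were those of Igfbp1, a binding protein of insulin-like growth factors, at 4.34 ± 0.30 (adjusted p = 4.7e-17), and Cdkn1a, the cell cycle inhibitor p21, at 3.04 ± 0.17 (adjusted p = 5.8e-20). The single fall was that of Pik3r1, a regulatory subunit of PI3 kinase, at -0.65 ± 0.058 (adjusted p = 1.4e-13), and Bcl6 was not called. Many of these genes are also targets of other fasting signals. Among 6 receptor chaperones 2 were higher, Hspa8 (0.60) and Hsp90ab1 (0.18), and 2 lower, Fkbp4 (-0.87) and Stip1 (-0.27), with a median of -0.07. Fkbp4, the co-chaperone that competes with the product of Fkbp5 on the receptor complex, went from 198 ± 50.6 to 108 ± 27.9 CPM (SD, 36 mice each, adjusted p = 2.3e-15). Of 8 coregulators 5 were higher, led by Ncor1 (0.31) and Ncoa2 (0.19), and 3 lower, among them Ncoa3 (-0.18), with a median of 0.15.

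Steroid handling had 5 genes tested, of which 4 were lower and 1 higher, with a median of -0.62. Serpina6, which encodes the corticosteroid-binding globulin of plasma, fell by 1.71 on the log2 scale (SE 0.12, adjusted p = 2.2e-16), from 303 ± 162 to 129 ± 158 CPM (SD, 36 mice each), and Srd5a1, a steroid reductase, fell by 0.83 (SE 0.090, adjusted p = 4.3e-11). H6pd, which supplies the cofactor for Hsd11b1 in the endoplasmic reticulum, rose by 0.51 (SE 0.046, adjusted p = 1.7e-13). Hsd11b2, the enzyme of the reverse reaction, had 25 counts over all 80 libraries and was not tested. Of 7 paralogs tested, 2 were higher, Tsc22d2 (0.49) and Sgk2 (0.48), 3 lower, led by Tsc22d1 (-0.96) and Fkbp4 (-0.87), and 2 not called, with a median of -0.08. Mt3 and Mt4 had 4 and 3 counts in all. Of 7 genes of zinc and copper handling, 2 were higher, Slc39a14 (0.37) and Slc30a1 (0.22), and 5 lower, led by the transporters Slc30a10 (-0.82) and Atp7b (-0.48), with a median of -0.14. Mtf1, which encodes the metal sensor of the metallothionein genes, is named outside the rule with its value known and had an effect of -0.14 ± 0.033 (adjusted p = 0.00025).

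Genes whose group means followed a member most closely over the 20 groups of treatment and time were found by Pearson's r of mean log2 CPM, given as a description: the groups share treatment and time. For Mt1 they were Mt2 (0.99), Tmed5 (0.96) and Gm45774 (0.96), and for Mt2 Mt1, Ctcflos (0.97) and Tmed5 (0.97). Gm45774 is annotated antisense to Mt2 and went from 0.034 to 0.28 CPM. Whether strand was used in counting is not given in the sources used here, so that its reads cannot be told apart from those of Mt2. Fkbp5 was followed by Rhbdd2, Atp10d and St3gal5 (0.99 for each), Zbtb16 by Fam107a (0.95), Gin1 (0.95) and Mlxip (0.94), and Tsc22d3 by Gm44507 (0.93), Fmo5 (0.91) and Shld2 (0.90). Nr3c1 went with Chchd1, Insig1 (both 0.97) and Acat2 (0.96), of which the last named and Insig1 belong to sterol synthesis and its control. Hsd11b1 went with Ugt2b1, Gstt1 and Srd5a1 (0.95 for each), and Sgk1 with Arl4a (0.91), Gm65503 and C730034F03Rik (both 0.88). Among members, r over these 20 groups was 0.90 for Fkbp5 with Zbtb16, 0.90 for Fkbp5 with Mt1 and -0.82 for Nr3c1 with Mt1.

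Markers of liver cell types were summed in each library of CT12 to CT44. Of 4 hepatocyte markers measured, 2 were higher, Apoa1 (0.81) and Alb (0.10), and 2 lower, Ttr (-0.48) and Serpina1c (-0.47), and their sum lay between 54765 and 102599 CPM in controls and 64146 and 118782 in fasted mice. Of 6 Kupffer cell markers, 5 were lower, led by Adgre1 (-0.67) and Cd5l (-0.45), and none was higher. Their sum was 234 to 803 CPM in controls and 159 to 505 in fasted mice. Among 5 markers each, endothelial cells had 2 higher, Lyve1 (1.57) and Pecam1 (0.22), and 2 lower, Clec4g (-0.20) and Kdr (-0.16), stellate cells 1 higher, Dcn (0.12), and 3 lower, led by Lrat (-0.83) and Reln (-0.34), and cholangiocytes 4 lower, led by Spp1 (-0.86) and Krt19 (-0.82). Of 6 lymphocyte markers, Klrb1c was higher (0.51) and 3 were lower, led by Ms4a1 (-1.09) and Cd79a (-0.46), and of 5 erythroid markers 2 were lower, Alas2 (-0.86) and Hbb-bt (-0.27). Acute phase genes had 3 of 8 higher, led by Lcn2 (1.11) and Hp (0.69), and 4 lower, led by Saa2 (-1.21) and Saa1 (-0.98). The mean level of Lcn2 ran the other way, at 44.7 ± 163 CPM in controls and 25.2 ± 29.8 in fasted mice (SD, 36 mice each). No marker measured was at 0 in all libraries of a group. Their part in the effects on the members was not tested. Fgf21, a hormone of the fasted liver, rose by 3.95 and Srebf1, the driver of fat synthesis, fell by 3.13 on the log2 scale. These means of CT12 to CT44 check the treatment titles for the groups, and not library by library or at CT8.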

How the data were processed

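Liver RNA of 80 mice was sequenced from polyadenylated RNA as stranded, paired-end libraries. The authors deposited read counts on genes and on exon bins, both as unscaled whole numbers. The submitters' processing notes name Trimmomatic, HISAT2, DESeq2 and GRCm39 without versions, and the counting program and its strand setting are not given in the sources used here. A further table deposited by the authors holds a normalized signal, the gene counts over a factor of each library (within 0.0022), and served only as an alternative scaling. The article is a review without methods for this experiment, which left the choice of tests open. In the exon table, 5 rows without a bin name held 11.7% of its counts and were left out.

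Here genes were filtered with filterByExpr, scaled by TMM and fitted with edgeR 4.0.16 (limma 3.58.1, R 4.3.3) with 1 mean per combination of treatment, time and sex over all 80 libraries. Libraries are separate mice, and all groups share 1 estimate of the spread. A prior count of 2 entered the log2 values of single libraries. Correlations were permuted with scipy, and scripts were tested on simulated data. Total counts of 25534901 to 59927771 limit mainly the rare transcripts. Errors are SDs over mice or SEs of the fit, which include the spread between mice. Groups follow the titles of the libraries, which disagree with other labels. No 2 replicates agreed within sampling noise (chi-square per degree of freedom at least 14.8). Same-numbered mice of both treatments mostly did not deviate together within a time and sex (20 correlations between -0.056 and 0.25, median 0.0019, 1 over 0.1). Pairing by replicate number across times or sexes was not tested. Reads of 76 bases are shared with another gene over at most 0.13% of a member's sequence, in Zbtb16, and over none of Mt1 and Mt2.

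The members and the lists of chaperones, coregulators, steroid handling, other targets, paralogs, zinc and copper handling, acute phase genes and cell type markers were chosen with earlier results of these data known. The 8 members are given in full, each list by its 2 largest rises and falls, and each member with its 3 genes of most similar pattern. Tried as alternatives were scaling by DESeq2's size factors or the deposited factors, other filters, DESeq2 1.42.0 and limma-voom, an adjusted p of 0.01, each sex alone, a model without sex, a block for replicate numbers, leaving out replicates, and other forms of the rhythm and exon tests.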

Additional observations from a re-analysis of the deposited data

Results flagged for a closer look

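For 8 genes in 20 groups of 4 mice, 160 sets of values in which the same mice recur, 14 held a mouse whose gap to the next was larger than Dixon's 95% critical value for 4 samples, and chance gives about 8 such sets. Most of these mice stood below their group. They were Hsd11b1 in a fasted female at CT40 (175 CPM), Fkbp5 in a fasted male at CT20 (294 CPM) and a fasted female at CT28 (64.1 CPM), Tsc22d3 in a control male at CT36 (81.7 CPM), and Zbtb16 in a control female at CT8 (5.96 CPM), a fasted male at CT24 (11.0 CPM), a fasted female at CT36 (7.44 CPM) and a control female at CT44 (12.8 CPM). Mt1 in a control male at CT8 (5.06 CPM) and in a fasted male at CT16 (39.4 CPM) were low as well, and the last named male was also low in Mt2 (16.3 CPM). Above their groups stood Fkbp5 in a control female at CT36 (170 CPM) and a control female at CT44 (76.5 CPM), and Sgk1 in a fasted female at CT40 (241 CPM). This last female was also the one with the low Hsd11b1, and it had 920 CPM of Mt1, the highest value of that gene.

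The fasting effect differed between females and males for Nr3c1, by -0.25 on the log2 scale, and for Hsd11b1, by -0.31. It differed between the 9 times for Nr3c1 (adjusted p = 0.013), Hsd11b1 (adjusted p = 0.023), Fkbp5 (adjusted p = 0.00048), Tsc22d3 (adjusted p = 0.0013) and Zbtb16 (adjusted p = 0.012, all from edgeR's quasi-likelihood test). The fitted rhythm of Fkbp5 differed between fasted and control livers (adjusted p = 0.00058). The cause of these differences was not tested.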

How the results depend on the processing

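The mean fasting effect kept its direction for every member in all 19 alternatives, and was called in all 19 for Nr3c1, Fkbp5, Zbtb16, Mt1 and Mt2, in 18 for Sgk1, in 17 for Hsd11b1 and in none for Tsc22d3. Genes called fell from 13233 to 4718 relative to the CT8 difference. At an adjusted p of 0.01 the change over time was called for 4297 genes and 2 members, the sex difference of the fasting effect for 1106 genes and 1 member, and the rhythm difference for 2720 genes. Without a filter on low counts, 6 members were called for the sex difference, 7 for the fasted rhythm and 6 for the rhythm difference. The cause was not tested. At CT8 the fit without the filter called 853 genes in place of 282, with 0 members. Here and below, a count of members without one of all genes is no result about the members. In males alone the change over time was called for 3508 genes and 3 members, the control rhythm for 5104 genes, the fasted rhythm for 5893, the rhythm difference for 2354 and effects at single times 28582 times. In females alone these were 1899 genes and 3 members, 4692 genes and 3 members, 4082 genes, 1560 genes and 0 members, and 27681. These fits hold fewer mice. With no sex in the model the change over time was called for 3868 genes and 2 members. The limma-voom fit called the rhythm difference of 2 members, as did the fit without the fasted library of high Sgk1 (Fkbp5 and Mt1 in both), and that fit called 1 member for the sex difference of fasting. Where each exon bin needed 10 counts in every library, exon usage was called for 989 genes and 2 members. In controls alone 1 pair of members covaried.

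Leaving out each replicate in turn, which leaves 1 mouse of a sex in each group, called 10835 to 12230 genes and 7 to 7 members for the mean effect, 1186 to 7051 and 0 to 5 for the change over time, 238 to 2473 and 0 to 2 for the sex difference of fasting, 5741 to 7704 and 4 to 5 for that of controls, 6464 to 7311 and 4 to 6 for control rhythms, 6697 to 7853 and 4 to 5 for fasted rhythms, 2635 to 3609 and 1 to 2 for the rhythm difference, 25717 to 42287 effects at single times and 38 to 40 of the 72 tests of members, and 1108 to 1456 genes and 3 to 4 members for exon usage. The change over time was called for 0 members without male replicate 1, and the sex difference of fasting for 0 without either male replicate.

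Replicate numbers as a block gave 13189 genes and 7 members for the mean effect and 45 of 72 tests at single times. With this block the sex difference in controls was that at replicate 1 of each sex and not one over both replicates. It was called for 5903 genes and 4 members, without Sgk1. The direction turned only for values that were not called. For the sex difference of fasting, leaving out replicates gave -0.16 to 0.063 for Tsc22d3 and -0.35 to 0.091 for Zbtb16 (positive without male replicate 1), and -0.90 to 0.31 for Mt1 and -0.71 to 0.23 for Mt2 (positive without male replicate 2). Without the 3 libraries of high Saa1 it was positive for Tsc22d3 (0.026) and Zbtb16 (0.12). For the sex difference in controls Zbtb16 was positive with the block, where it is taken at replicate 1 (0.092). With replicates left out Zbtb16 lay between -0.36 and 0.13 (positive, 0.070 and 0.13, without either replicate 2), and Tsc22d3 between -0.095 and 0.075 (positive, 0.075 and 0.027, without male replicate 2 or female replicate 1).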
